A study of Mus musculus with 4 samples.

Results

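Condensin is the ring-shaped protein complex that compacts chromosomes for division, and its genes were followed here in germinal vesicle (GV) stage mouse oocytes exposed to γ-irradiation. The members were chosen by name as the subunits of condensin I and condensin II, namely Smc2, Smc4, Ncapd2, Ncapd3, Ncapg, Ncapg2, Ncaph and Ncaph2. All 8 were listed among the 17374 genes of the expression table, with 29 of its 45505 transcripts. RNA-seq was available from 4 libraries, 2 from non-irradiated control cells and 2 from cells collected 24 h after a dose of 5 Gy. All oocytes came from non-primed female C57/Bl6/DBA2J F1 hybrid mice on postnatal day 16, with no transgene or deletion named for any group, and were pooled, freed of cumulus cells and kept in medium with milrinone, which prevents meiotic resumption. The study calls the replicates independent experiments. No time in culture is given for the control oocytes of this assay, so irradiation and time in culture cannot be told apart.

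Condensin I and condensin II are built on the same core, an ATPase made of SMC2 and SMC4. Each adds its own kleisin, the subunit that closes the ring (NCAPH in condensin I, NCAPH2 in condensin II), and its own pair of HEAT-repeat subunits (NCAPD2 and NCAPG, or NCAPD3 and NCAPG2). In dividing cells condensin II is nuclear throughout the cycle, whereas condensin I gains access to chromosomes after nuclear envelope breakdown. Both shape the bivalents of mouse oocytes in meiosis. A growing oocyte also stores many transcripts for later translation, so that an mRNA level is not a level of protein or of assembled complex.

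Many genes of the cell division programme carry the cell cycle genes homology region, a short promoter element read by the DREAM and MuvB complexes. Its core letters TTTGAA were therefore searched on both strands (reverse complement TTCAAA) in windows of 250 bases, each before a transcription start given for the gene by RefSeq (GRCm38.p6), which need not be the outermost end of the gene span. The letters were present in 5 of 8 windows, in Smc2, Ncapg, Ncapg2, Ncapd2 and the second of the Ncapd3 windows, against 16% of the 32851 windows of all genes. The windows of Ncaph and Ncaph2 and the first Ncapd3 window did not hold them, and no window was given for Smc4. The Ncapd3 match, at base 27060167, lay far inside the gene, whose RefSeq span begins at base 27030165. CCAAT or ATTGG, the letters of the CCAAT box, were present in 3 of the 8 windows against 33.8% of all windows. Of the 5 matches only that of Smc2 lay before the RefSeq span of the gene, and the other 4 lay inside the span. The Smc2 window is shown for this reason and the Ncapg window because Ncapg had the highest level of the members. The Smc2 sequence covers chr4:52438971-52439220 on the plus strand and ends where the span begins. The Ncapg sequence covers chr5:45669675-45669918 on the plus strand, up to the first GENCODE exon of the gene. The matched letters are in capitals and begin at base 52439076 in Smc2 and at base 45669895 in Ncapg, just inside the RefSeq span, which begins at base 45669891.
Smc2: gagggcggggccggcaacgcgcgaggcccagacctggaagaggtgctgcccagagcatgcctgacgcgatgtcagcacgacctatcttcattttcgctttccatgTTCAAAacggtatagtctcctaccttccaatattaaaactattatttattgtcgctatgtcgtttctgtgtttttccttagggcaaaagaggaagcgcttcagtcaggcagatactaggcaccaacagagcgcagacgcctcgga
Ncapg: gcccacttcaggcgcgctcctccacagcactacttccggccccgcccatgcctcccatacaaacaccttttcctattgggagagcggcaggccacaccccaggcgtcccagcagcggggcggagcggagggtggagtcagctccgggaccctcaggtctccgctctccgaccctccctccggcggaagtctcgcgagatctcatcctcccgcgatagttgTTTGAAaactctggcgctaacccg
A match to 6 letters is a description of the window and not evidence of binding.

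Condensin subunit transcripts ranged in mean level from 158 to 0.70 TPM (transcripts per 1e6 transcripts, a value corrected for transcript length). Levels are sums over the transcripts of a gene, in the order control 1, control 2, irradiated 1 and irradiated 2. Ncapg, a HEAT-repeat subunit of condensin I, was the most abundant, at 158.79, 172.04, 153.02 and 150.12 TPM. Its rank was 819 of the 17374 listed genes. Ncapd2, the other HEAT-repeat subunit of the same complex, was the least abundant, at 0.72, 0.63, 0.73 and 0.73 TPM, and was ranked 10125. The median over all listed genes was 1.41 TPM, so that Ncapd2 alone of the 8 members was below it. The ratio of Ncapg to Ncapd2 was 221, 273, 210 and 206 in the 4 libraries. Transcripts of these partners in a single complex were thus the furthest apart of all members.

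**Figure D1:**
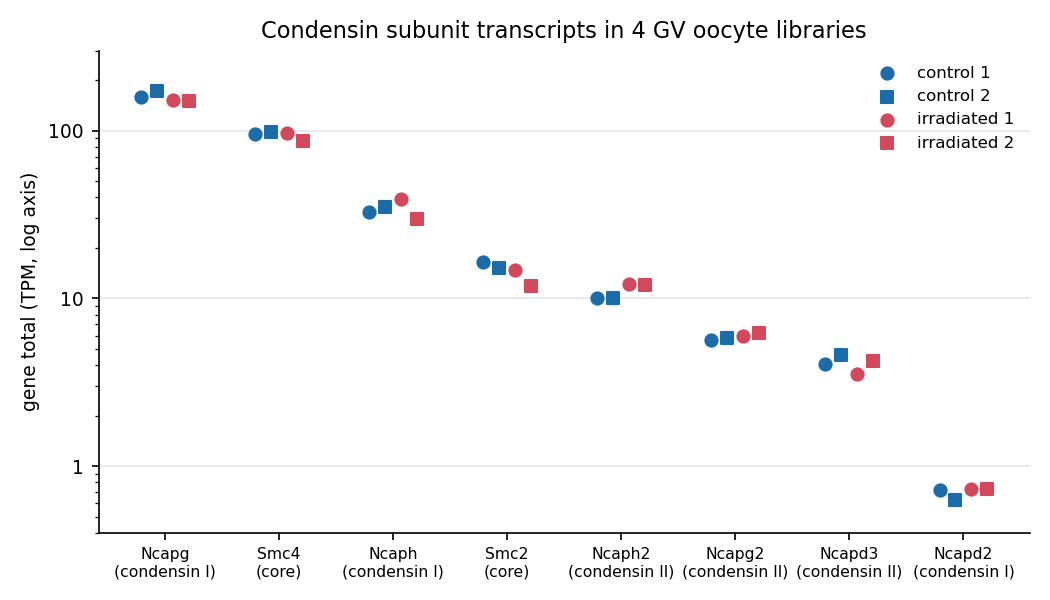
Gene totals of the 8 condensin subunits in TPM on a log axis, 1 point for each library, with control libraries in blue and irradiated libraries in red, ordered by mean level. The members run from 150.12 to 172.04 TPM for Ncapg down to 0.63 to 0.73 TPM for Ncapd2, and the 4 points of each member lie close together relative to that range.

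The shared core was unevenly represented. Smc4 had 95.16, 98.75, 96.66 and 86.68 TPM, second to Ncapg. Smc2, whose product pairs with that of Smc4, had 16.54, 15.10, 14.76 and 11.86 TPM. Smc4 exceeded Smc2 by 5.75, 6.54, 6.55 and 7.31 times in the 4 libraries.

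The kleisins were intermediate. Ncaph of condensin I had 32.74, 35.15, 39.41 and 29.56 TPM, with the highest and the lowest value both in irradiated libraries. Ncaph2 of condensin II had 10.11, 10.01, 12.21 and 12.01 TPM, higher in each irradiated library than in each control library on this scale. The same held in TPM for 32.7% of the 12569 genes tested. The ratio of Ncaph to Ncaph2 was 3.24, 3.51, 3.23 and 2.46.

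The HEAT-repeat subunits of condensin II lay lower. Ncapg2 had 5.66, 5.83, 5.98 and 6.25 TPM, and the ratio of Ncapg to Ncapg2 was 28.1 and 29.5 in the controls and at most 25.6 after irradiation. Ncapd3 had 4.08, 4.62, 3.53 and 4.25 TPM. The pair Ncapd3 and Ncapd2 was the exception to the higher level of condensin I, with Ncapd3 of condensin II 5.67, 7.33, 4.84 and 5.82 times higher. In order of level the members were Ncapg, Smc4, Ncaph, Smc2, Ncaph2, Ncapg2, Ncapd3 and Ncapd2, and the ranges over the 4 libraries of neighbouring genes overlapped only for Smc2 and Ncaph2.

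Summed over its 3 own subunits, condensin I was 9.69, 10.2, 8.89 and 8.01 times condensin II in TPM. Ncapg made up 82.6, 82.8, 79.2 and 83.2% of the condensin I sum, and the geometric mean of the 3 subunits gave a condensin I to condensin II ratio of 2.52, 2.42, 2.58 and 2.17. The summed ratio was lower in each irradiated library than in each control library, a log2 difference of -0.23, with an exact two-sided permutation p of 0.333, the smallest that 2 libraries against 2 can give. By the geometric mean the log2 difference was -0.06 and the groups overlapped. The sum of all 8 members was 324, 342, 326 and 301 TPM, with a mean of 333 ± 13.0 (SD, n = 2) for the controls and of 314 ± 17.6 (SD, n = 2) after irradiation.

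**Figure D2:**
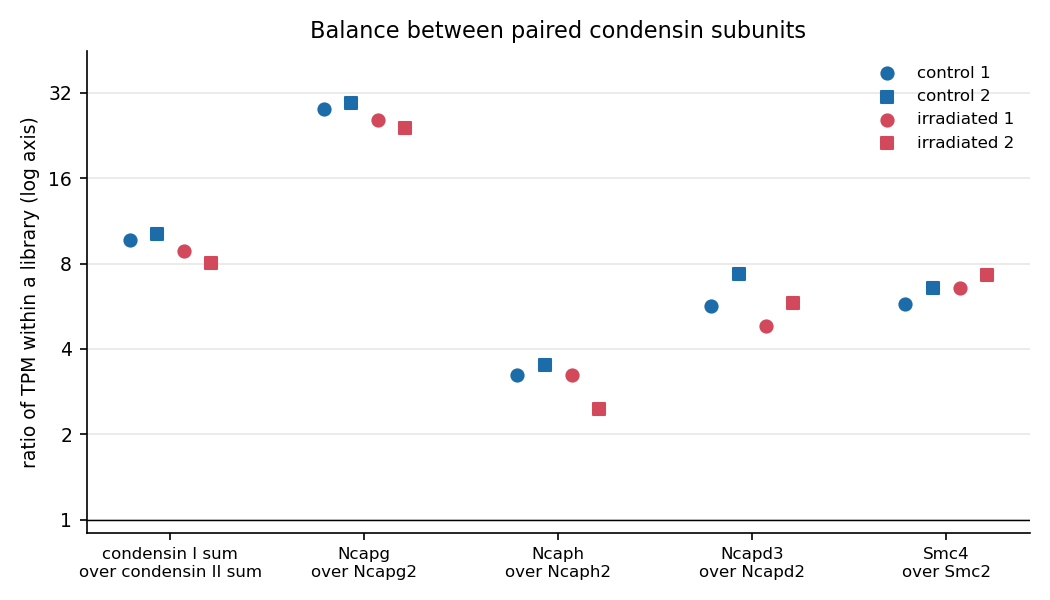
Ratios of TPM within each library on a log axis, for the condensin I sum over the condensin II sum and for 4 pairs of subunits, with control libraries in blue and irradiated libraries in red and a line at 1. Every ratio lies above 1, from 2.46 for Ncaph over Ncaph2 to 29.5 for Ncapg over Ncapg2, and Ncapd3 over Ncapd2 is the pair in which condensin II is higher.

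Library facts that bear on the comparison are as follows. The estimated counts summed to between 33349466 and 37232818 per library. Irradiated library 2 stood apart: the median absolute log2 difference over tested genes was 0.289 to 0.321 between it and the other libraries and 0.128 to 0.152 among the other 3. Its TMM factor, the edgeR scaling for composition, was 1.19 against 0.923 to 0.975. All 12 oocyte markers were listed, led by Dppa3, Zp3 and Gdf9, with summed levels of 45823 to 52141 TPM, the lowest in irradiated library 2. Single markers went both ways in that library. Dppa3, Gdf9, Zp2, Ooep, Mos and Bmp15 were lowest there, Dppa3 at 16142 TPM against 20596 to 22942 TPM. Zp3, Zp1, Nobox and Ddx4 were highest there, Zp3 at 15620 TPM against 10914 to 11773 TPM, and Figla and Kit were neither. Of 16 granulosa and cumulus markers 12 were listed, with summed levels of 17.8 and 20.2 TPM in control and 17.7 and 24.6 TPM in irradiated libraries, led by Cyp19a1, Nr5a2 and Fshr, while Amh, Foxl2, Fst and Amhr2 were not listed and Inhbb, Gja1, Hsd17b1 and Has2 had at most 3 counts in any library. Of 8 markers of blood, immune and endothelial cells 4 were listed, while Ptprc, Lyz2, Cd3e and Cd79a were not. Pecam1, Cd68 and Tie1 led them, Tie1 with only 1, 1, 1 and 17 counts, and the 4 summed to 5.58 to 9.52 TPM. Both sums were highest in irradiated library 2, and the part of these markers in the results was not tested. In pooled oocytes, fewer cells and less RNA per cell cannot be told apart.

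No condensin subunit passed the test of irradiated against control oocytes. Gene totals of estimated counts were compared with the quasi-likelihood test of edgeR with Benjamini-Hochberg adjustment, and a gene was called where the adjusted p was under 0.05 and the size of the log2 fold change exceeded 2. Of the 8 members 0 were called, against 0.00796% of the 12569 genes tested, which is 1 gene, Fermt1, and removing the limit on the fold left both counts as they were. At an unadjusted p under 0.05 there was 1 member, against 5.92% of all genes. DESeq2 and the edgeR exact test also called 0 members. The fitted log2 fold change was below 0 for 7 members and above 0 for 1, with a median of -0.22 against 0.01 over all genes tested. Of the 12 oocyte markers 9 had a fitted value below 0 and 3 above, with a median of -0.24. Adjusted p-values of the members from edgeR lay between 0.708 and 0.925.

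The median of the 8 members depended on which irradiated library was kept. It was 0.0027 when irradiated library 2 was left out and -0.51 when irradiated library 1 was, beside medians over all genes of 0.0026 and 0.01. With irradiated library 2 as the only irradiated library, 6 of 8 members had an edgeR adjusted p under 0.05 at any fold, against 34.3% of all genes in that fit, and 0 passed the limit on the fold. With irradiated library 1 as the only one, 0 of 8 did, against 0.791%. Such a fit assumes that the lone irradiated library varies as the controls do. For each of the 8 members the fitted value was lower with irradiated library 2 alone than with irradiated library 1 alone. The same held for each listed gene of the related SMC5/6 complex, while cohesin genes went both ways. The share of all genes with this order was not counted.

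**Figure D3:**
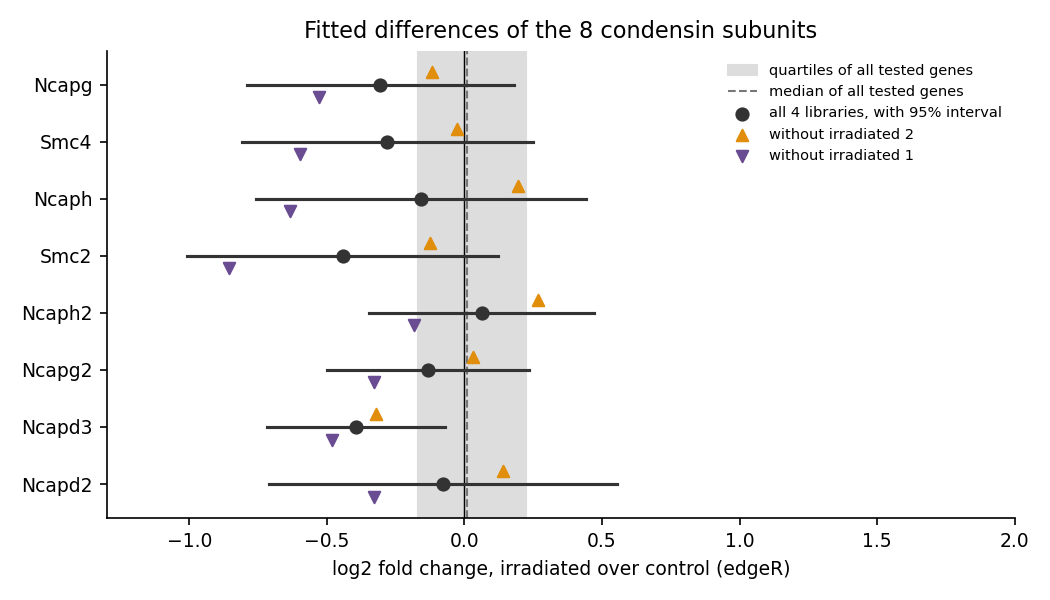
Log2 fold change of each member, irradiated over control, from edgeR with all 4 libraries (points, with bars for the 95% confidence interval) and with each irradiated library left out (triangles), over a grey band for the quartiles (-0.17 to 0.22) and a dashed line for the median (0.01) of all genes tested. For each member the value without irradiated library 1 lies to the left of the value without irradiated library 2, an order whose share over all genes was not counted. Ncapd3 is the only member whose interval leaves out 0.

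Among the core subunits, estimated counts of Smc2 were 2418, 1958, 1980 and 1487. On the scale of TMM-normalized counts both irradiated libraries lay below both control libraries, as they did for 4 of the 8 members against 19.9% of all genes, while 0 members had both above against 22.1%. In TPM the count was 2 below (Ncapg and Smc2) against 5.88% of the same genes and 3 above (Ncaph2, Ncapg2 and Ncapd2) against 32.7%, so that this count depended on the scale. The log2 fold change of Smc2 was -0.44 (SE 0.24, 95% confidence interval -1.01 to 0.12, edgeR adjusted p = 0.708), and it was -0.13 without irradiated library 2. Smc2 had the largest fitted difference in size, and its interval was the only 1 of 8 to reach beyond a 2-fold change. Smc4 had counts of 10775, 9923, 10056 and 8422, and irradiated library 1 differed from control 2 by little on the normalized scale (10694 against 10755). Its log2 fold change was -0.28 (interval -0.81 to 0.25) and -0.03 without irradiated library 2.

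Of the condensin I subunits, Ncapg had counts of 13415, 12869, 11984 and 11229, lower in both irradiated libraries also after normalization. Its log2 fold change was -0.31 (SE 0.20, interval -0.79 to 0.18, edgeR adjusted p = 0.714) and -0.12 without irradiated library 2. Ncaph had 2249, 2148, 2492 and 1746 counts, and the irradiated libraries lay on either side of the controls. Its log2 fold change of -0.16 (interval -0.76 to 0.44) became 0.19 without irradiated library 2 and -0.64 without irradiated library 1. Ncapd2 had 62, 50, 61 and 55 counts, the fewest of the members. Its log2 fold change was -0.08 (SE 0.27, interval -0.71 to 0.55).

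Of the condensin II subunits, Ncapd3 had the smallest p of the members. Its counts were 599, 601, 476 and 531, lower in each irradiated library, while its groups overlapped in TPM (4.08, 4.62, 3.53 and 4.25). The log2 fold change was -0.39 (SE 0.14, interval -0.72 to -0.07), with an unadjusted p of 0.0235 and an edgeR adjusted p of 0.708 over all genes. Leaving out irradiated library 2 gave -0.32 and leaving out irradiated library 1 gave -0.48, the narrowest such span of the 8 members. Ncapg2 had 987, 906, 958 and 930 counts, with overlapping groups and a log2 fold change of -0.13 (interval -0.50 to 0.24), which became 0.03 without irradiated library 2. Ncaph2 had 862, 760, 965 and 881 counts and the only fitted value above 0, at 0.06 (interval -0.35 to 0.47). Its groups were separate in TPM and overlapped in TMM-normalized counts.

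The scaling bears on these signs. With library size alone in place of TMM factors the median log2 fold change over all genes was 0.17, and Ncapg2 and Ncapd2 changed sign, to 0.0097 and 0.07, while Smc2 was -0.32, Ncapd3 -0.24, Ncapg -0.17, Smc4 -0.15, Ncaph -0.04 and Ncaph2 0.20. Each member but Ncaph2 was below that median of 0.17 under this scaling.

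Reads were shared out among transcripts before the counts were deposited, and transcripts were compared next. Of the 29 transcripts listed for the members, 11 are curated models (NM) and 18 predicted ones (XM), 15 exceeded 3 counts in all 4 libraries and 7 in only 1 library. The edgeR test covered 21, of which 0 were called, against 0% of 26645 transcripts tested over all genes, and 1 had an unadjusted p under 0.05, against 4.9%. DESeq2 and the edgeR exact test also called 0 of the member transcripts, against 0.862% and 0.927% of all transcripts they tested. Use of isoforms within a gene could be tested for 7 members, and 0 were called against 0.253% of 6323 genes, with 1 member at an unadjusted p under 0.05 against 6.12%.

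That member was Smc4, through a minor predicted transcript. NM_133786.4 carried 96.4, 96.1, 96.2 and 96.3% of the Smc4 reads, a steady share in all libraries. XM_006502046.2 had 19, 21, 0 and 0 counts, at least 7.32-fold lower after irradiation when set against 3 counts per library, with an unadjusted p of 0.0144 and an edgeR adjusted p of 0.777. Its share of the Smc4 reads was 0.18 and 0.21% in the controls. XM_030252812.1 had 0, 0, 4 and 9 counts, at least 1.90-fold higher by the same floor, and was not tested. For isoform use of Smc4 the Simes test of edgeR gave an adjusted p of 0.484. Transcripts that hold so small a share of the reads of a gene depend on how the reads were shared out.

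Ncapg reads were divided between NM_019438.1 and the predicted XM_011240756.3. XM_011240756.3 held 55.6 and 57.3% of them in control and 52.0 and 41.9% in irradiated libraries, lower in both irradiated libraries and by most in irradiated library 2. NM_019438.1 had 5961, 5498, 5757 and 6529 counts, and XM_011240756.3 had 7454, 7370, 6227 and 4700. The log2 fold change of XM_011240756.3 was -0.54 (SE 0.27, interval -1.31 to 0.24), and its edgeR adjusted p was 1.00.

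Ncapg2 had 8 listed transcripts whose shares varied between replicates of the same group. NM_133762.4 held 51.7 and 70.9% of the reads in control and 52.4 and 20.4% in irradiated libraries. XM_006516353.3 had 259, 0, 223 and 548 counts, at 0 in control 2 and most abundant in irradiated library 2. The 4 gene totals, at 906 to 987 counts, were by contrast close to each other.

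In Ncaph2, NM_001115132.2 held 48.3, 62.9, 78.1 and 51.4% of the reads and NM_001271600.1 held 29.8, 21.3, 9.12 and 19.9%. The shares of NM_001271600.1 were lower in both irradiated libraries, with counts of 257, 162, 88 and 175 that overlapped between groups. A further curated model, NM_001271601.1, is annotated but was not listed. The 2 listed curated models differ by a coding stretch of 93 bases, 31 codons, at chr15:89355851-89355943 on the plus strand (GRCm38). NM_001115132.2 has the stretch and NM_001271600.1 lacks it. It is shown whole since it separates the most abundant Ncaph2 transcript from the other curated one listed.
Ncaph2 coding stretch: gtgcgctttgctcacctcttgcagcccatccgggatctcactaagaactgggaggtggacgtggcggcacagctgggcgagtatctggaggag
Because it is a multiple of 3 bases, the stretch adds or removes whole codons.

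**Figure D4:**
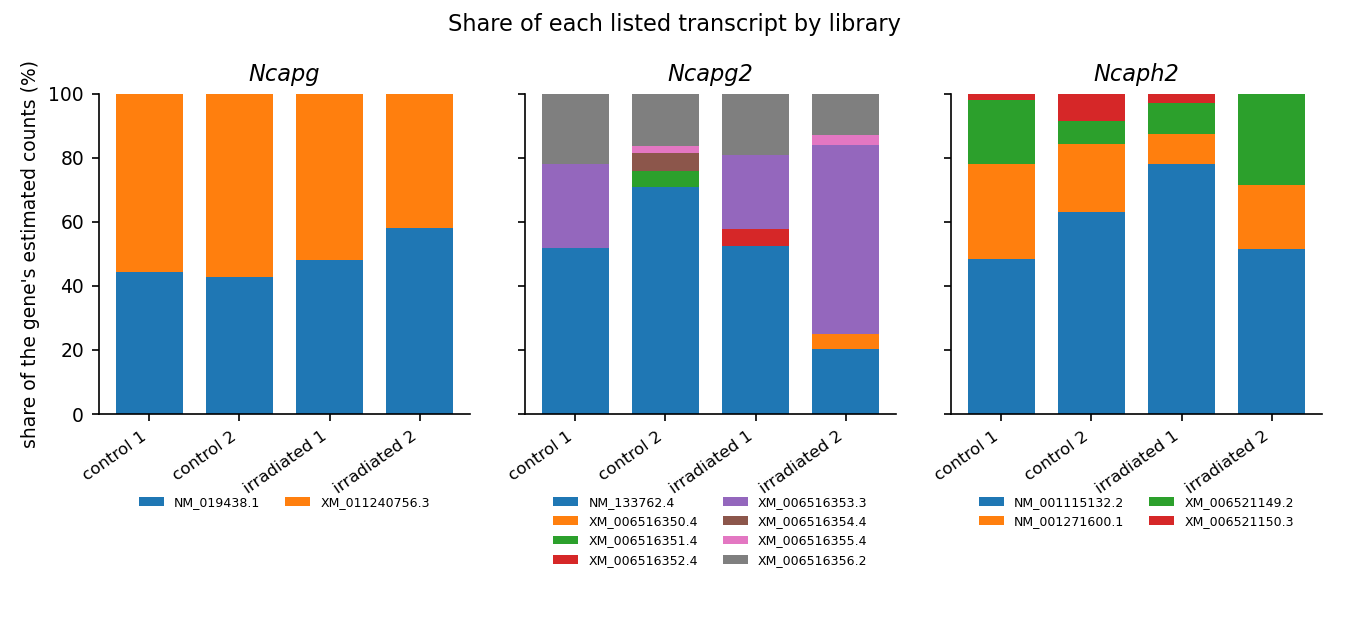
Stacked bars of the share in percent of the estimated counts of Ncapg, Ncapg2 and Ncaph2 held by each listed transcript, 1 bar for each library. The larger Ncapg share passes from XM_011240756.3 (55.6 and 57.3% in control) to NM_019438.1 (58.1% in irradiated library 2), while the Ncapg2 and Ncaph2 shares also vary between libraries of the same group.

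The other members were dominated by a single transcript or had too few reads to divide. NM_001301412.1 held 86.8, 85.3, 82.1 and 88.2% of Smc2 reads, and the other listed Smc2 transcript has the same coding exons. NM_178113.3 held 95.8, 95.7, 94.5 and 100% of Ncapd3 reads. Of the annotated mRNAs, 3 of 7 were listed for Ncapd3, 3 of 4 for Ncapd2, 8 of 9 for Ncapg2 and 4 of 5 for Ncaph2. For Ncaph a single transcript was listed. In Ncapd2, XM_006506533.3 had 50, 35, 40 and 40 counts and the curated NM_146171.1 had 0, 0, 0 and 15, so that only irradiated library 2 held reads assigned to it.

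The genes lie on 8 chromosomes in the RefSeq annotation of GRCm38.p6. They are Ncapg at chr5:45669891-45700547, Smc4 at chr3:69004738-69034623, Ncaph at chr2:127103809-127133954, Smc2 at chr4:52439221-52488365, Ncaph2 at chr15:89355719-89372850, Ncapg2 at chr12:116405351-116463532, Ncapd3 at chr9:27030165-27096522 and Ncapd2 at chr6:125168007-125192100. Ncapg overlaps Lcorl, Ncaph2 overlaps Sco2 and Tymp, and Ncaph overlaps the long non-coding gene Gm35347. Smc2 overlaps the pseudogene Tmc4-ps, Smc4 the microRNA genes Mir15b and Mir16-2, and Ncapd2 the small RNA gene Scarna10. Without a stated strand setting reads of overlapping genes cannot be told apart. Gene totals of 5 members were whole numbers within 0.02 in every library, as they are when each read is given to 1 gene, and those of the other 3, Ncapg, Ncaph2 and Ncapd3, were not.

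Genes that act with condensin were compared as a list of 22 partners and regulators, all of them tested. By edgeR 0 were called against 0.00796% of all genes, with 1 higher and 1 lower at an unadjusted p under 0.05 against 5.92%, and the exact test and DESeq2 also called 0. Fitted values were above 0 for 6 and below 0 for 16, with a median log2 fold change of -0.06. Plk1, a mitotic kinase that phosphorylates condensin II, had 30.72, 39.01, 41.15 and 88.29 TPM, highest by far in irradiated library 2. Its log2 fold change was 0.61 (SE 0.24, edgeR adjusted p = 0.708), and 0.22 without that library. Top2a, the topoisomerase that works beside condensin on mitotic chromosomes, had 4.30, 5.06, 4.02 and 3.66 TPM and a log2 fold change of -0.49 (SE 0.20, edgeR adjusted p = 0.708), which was -0.24 without irradiated library 2. Aurkb, a kinase of the chromosomal passenger complex, had 4.93, 6.27, 6.76 and 10.82 TPM and a log2 fold change of 0.40 (interval -0.02 to 0.82). The most abundant of the list were Ccnb1, the cyclin partner of CDK1, at 1904 TPM on average, Aurkc, the germ cell Aurora kinase, at 387 TPM, and Csnk2b, the regulatory subunit of casein kinase 2, at 231 TPM. Each of these 3 exceeded the most abundant condensin subunit in level.

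The related SMC complexes gave a frame for the values of condensin. Of 9 cohesin core genes 8 were listed and tested, with 0 called and a median log2 fold change of -0.35, which was -0.19 without irradiated library 2. Of 7 genes of the SMC5/6 complex 6 were listed and tested, with 0 called and a median of -0.24, which was -0.09 without that library. Over all genes tested 0.00796% were called and the median was 0.01, which was 0.0026 without irradiated library 2. The condensin median of -0.22 lay above those of the cohesin and SMC5/6 lists, and differences between the lists were not tested. Condensin genes ranged from 0.70 to 158 TPM in mean level, cohesin genes from 0.30 to 34.6 TPM and SMC5/6 genes from 1.49 to 495 TPM. Smc4 at 94.3 TPM exceeded Smc3, the highest cohesin gene, at 34.6 TPM. All 12 markers of proliferating cells, of which Cdk1 and Mki67 are also on the partner list, were listed, led by Birc5, Tyms and Pcna, with summed levels of 3291, 3175, 3023 and 2947 TPM. Birc5 made up most of that sum, and the other 11 summed to 364, 385, 368 and 425 TPM. By edgeR 0 of the 12 were called. At an unadjusted edgeR p under 0.05 there were 2 with a fitted value above 0, the helicase genes Mcm2 and Mcm7, and 0 below. At that limit 582 of the 12569 genes tested were above 0 and 162 below.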

How the data were processed

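RNA-seq of 4 libraries of pooled GV oocytes was analysed, grouped by condition and replicate number from the labels. The authors isolated mRNA with oligo(dT), and per the labels the tools were HISAT2, Bowtie2 and RSEM with build mm10, with no roles or versions given there. The authors deposited estimated counts for each RefSeq transcript, not scaled for library size, and TPM values. A further 4 FPKM columns and 6 columns of averages were not used. The table lists transcripts with a count of at least 1 in a library.

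Counts and TPM were summed by gene ID, and 17323 of 17374 IDs matched a RefSeq symbol. Summed counts were rounded, filtered by filterByExpr (minimum count 10), scaled by TMM and compared by glmQLFit and glmQLFTest (edgeR 4.0.16, R 4.3.3), and p-values were adjusted by Benjamini-Hochberg over all features. Calls required 0.05 on the adjusted p and 2 on the size of the log2 fold change. Isoform use was tested with diffSpliceDGE and Simes' method. Alternatives were DESeq2 1.42.0, the edgeR exact test, other scalings, no filter, limma 3.58.1 on log2(TPM + 1) and log2(TPM + 0.1), a replicate block and leaving out each library. On data simulated for gene totals of irradiated against control oocytes, with 200 of 12569 genes changed by 3 on the log2 scale, edgeR recovered 100% with 0 false calls. For transcripts it recovered 67.5% with 4 false calls, and DESeq2 recovered 76% with 59. The changed features were drawn from those with higher counts, and all libraries were made to vary alike. Smaller changes were not simulated, so recovery of differences of the size fitted for the members is not known.

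Named were all members, their most abundant transcript and that of the smallest p, transcripts present in a single condition, the 3 most changed and 3 most abundant partners, leading markers and called genes. Further transcripts were named after their values were seen. The members and lists were chosen with earlier results of these data known. Counting error is the only error in a floor of 3 counts, and PCR reads are not independent molecules.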

Additional observations from a re-analysis of the deposited data

How the results depend on the processing

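The count of called members, of called partners, of called member transcripts and of members with shifted isoform use was 0 under every alternative run. Over all genes, 1 gene was called, against 4 by DESeq2, 10 by the exact test, 3 with no filter, 7 with the replicate block, 0 with library size alone and 0 by limma on log2(TPM + 1) and log2(TPM + 0.1), and 16 to 87 with a library left out, 87 without irradiated library 1. Over all transcripts 0 were called, against 248 by DESeq2 and 247 by the exact test. The log2 difference of the condensin I to condensin II ratio was -0.0642 by the geometric mean. Of 94 alternative values of the member log2 fold changes 83 kept their direction and 11 turned it. With library size alone Ncapd2 was 0.0677 and Ncapg2 0.00965. By limma on log2(TPM + 1) and on log2(TPM + 0.1), Ncaph was 0.00895 and 0.00883 and Ncapg2 0.0769 and 0.0884, and Ncapd2 was under the mean TPM of 1 and has no value. With libraries left out, Ncapd2 was -0.33 to 0.14, with 0.04 without control library 1 and 0.14 without irradiated library 2, Ncaph -0.64 to 0.19, Ncapg2 -0.33 to 0.0321 and Ncaph2 -0.18 to 0.27. The cause was not tested. The correlation of deviations from group means between control library 1 and irradiated library 1 was 0.08. With 2 libraries per group this is a single value, which cannot decide whether replicate numbers pair the libraries. The replicate block changed no call of a member. With it 2 members and 1299 of the 12569 genes tested had an unadjusted edgeR p under 0.05, against 1 and 744 without it. With all 4 libraries the smallest adjusted p of a member under an alternative was 0.392.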
